A study of Homo sapiens with 6 samples.

Results

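Described here are 10 genes of the DNA damage response for which CDK12 is best known: ATM, ATR, CHEK1, BRCA1, BRCA2, PALB2, FANCI, FANCD2, RAD51C and RAD51D. They were chosen by gene symbol from the 26364 symbols in the deposited counts, and all 10 had enough reads to be tested. The libraries are messenger RNA of ZR-75-30, an established human breast adenocarcinoma line, and cover 3 replicates infected with the empty lentiviral vector, control (pLVX), and 3 infected with the same vector carrying CDK12, CDK12 (pLVX-CDK12). Both groups therefore carry a lentivirus, and the cells keep their own CDK12 gene. The series design calls the replicates biological, but the labels do not say whether each came from a separate infection, so the p-values measure only the spread between these libraries.

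CDK12 is a kinase that works with cyclin K and phosphorylates the tail of RNA polymerase II during elongation. Its loss is known to lower the transcripts of long DNA repair genes, BRCA1, ATR, FANCI and FANCD2 among them. The comparison here is the reverse one and asks where these transcripts stand when the CDK12 transcript is in excess. The proteins act in sequence: ATM and ATR sense broken or stalled DNA, CHEK1 relays the signal of ATR, FANCI and FANCD2 form the clamp that marks crosslinked DNA, BRCA1, PALB2 and BRCA2 set up repair by homologous recombination, and RAD51C and RAD51D belong to complexes that assist it.

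The 6 libraries held 21178163 to 26543653 counts, of which 5717 to 7427 per library fell on the 10 genes. Levels are CPM, counts scaled to a common library total, after TMM scaling, which balances most genes between libraries, and are given as mean ± SD. CDK12 itself was 27.3-fold higher in the libraries given its virus, with 77.9 ± 4.61 CPM in the controls against 2124 ± 116 CPM (n = 3 per group), so each group matched its label. Viral and endogenous CDK12 transcripts cannot be told apart in these counts, and CDK12 protein and kinase activity were not measured. CCNK, the gene of cyclin K, did not rise with it (76.6 ± 2.61 and 72.2 ± 0.92 CPM). CDK13 stood at 119 ± 4.22 and 110 ± 1.52 CPM. Both were lower without overlap but not called (log2 fold changes -0.09 and -0.10). The luminal epithelial markers averaged from 17.2 (CDH1) to 8656 CPM (ERBB2) in controls, while 5 of 6 fibroblast, 3 of 5 immune and 3 of 4 endothelial markers averaged under 1 CPM. The summed levels of all 4 lists moved with the groups. Luminal markers summed to 13560 to 14200 CPM in controls and 11910 to 12460 CPM with CDK12, with 4 of 8 called lower (ERBB2, KRT8, KRT18 and GATA3). Most of this sum was ERBB2 (8656 ± 275 and 7357 ± 257 CPM). CDH1 was higher without overlap but not called (17.2 ± 1.07 and 19.3 ± 1.22 CPM). Fibroblast markers summed to 46.6 to 51.4 and 60.3 to 71.2 CPM, with COL1A1 higher and COL3A1, under 1 CPM, lower (log2 fold changes 0.40 and -2.44). Nearly all of this sum was COL1A1 (48.2 ± 2.51 and 63.8 ± 6.10 CPM), so its rise is that of 1 gene. COL1A2, too low to be tested, was lower without overlap like COL3A1, and DCN, LUM and PDGFRB overlapped between the groups. Immune markers summed to 4.91 to 6.14 and 3.04 to 3.17 CPM, with PTPRC lower and CD14 higher (-3.02 and 0.85), and endothelial markers to 2.45 to 3.29 and 1.56 to 2.17 CPM. Their part in the results was not tested.

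With the CDK12 transcript in excess, the 10 genes did not move in one direction. RAD51C, ATM and PALB2 rose, CHEK1, FANCD2, FANCI and BRCA1 fell, and ATR, BRCA2 and RAD51D did not pass the test. The test was edgeR's quasi-likelihood test with Benjamini-Hochberg adjustment over all 14665 genes tested, at an adjusted p of 0.05. Of all genes tested 35.1% passed, 16.2% higher and 18.9% lower, and 7 of the 10 members passed, 3 higher and 4 lower. The same 7 were the members whose groups did not overlap, 3 with CDK12 above and 4 with CDK12 below; among all genes tested 45.6% showed no overlap, 22.1% with CDK12 above and 23.6% below. The called members had absolute log2 fold changes from 0.199 to 0.417. Over all genes tested, called or not, the median of this size was 0.142 and the upper quartile 0.272, which 5 of the 7 called members exceeded. The members' signed median was 0.08 against 0.00 for all genes. Against a fold of 1.2 (edgeR's glmTreat), 0 of the 10 passed the adjusted threshold, and 2, RAD51C and CHEK1, had an unadjusted p under 0.05. Few genes passed this limit at all: 459 were higher and 479 lower of the 14665 tested. Without the fold limit, the DESeq2 Wald test called 6 of the 10 and limma-voom 7. Over all genes DESeq2 called 1699 higher and 2275 lower, and limma-voom 2331 and 2774.

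**Figure D1:**
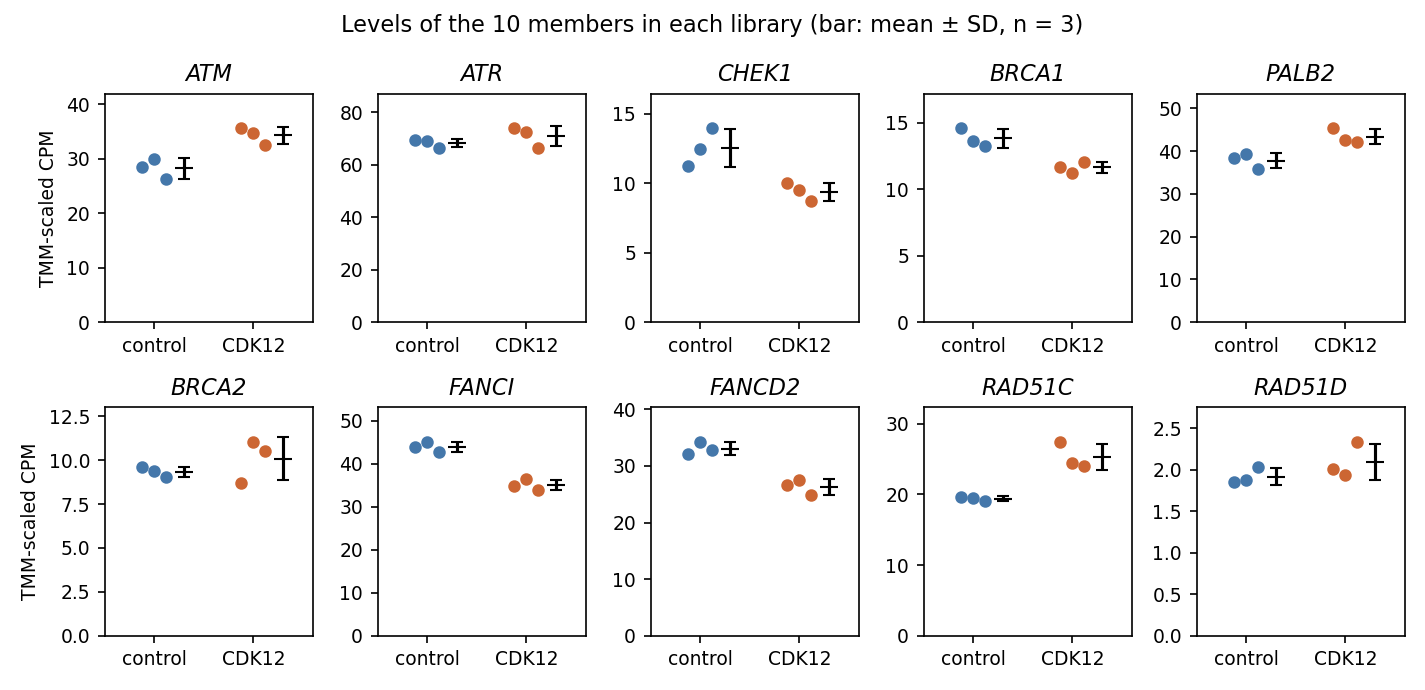
TMM-scaled CPM of each of the 10 genes in the 3 control (blue) and 3 CDK12 (orange) libraries, with black bars for mean ± SD. The groups stand apart for ATM, PALB2 and RAD51C (CDK12 above) and for CHEK1, BRCA1, FANCI and FANCD2 (CDK12 below), and overlap for ATR, BRCA2 and RAD51D.

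The promoters of a few members are shown first, because the largest rise, the largest fall and a member that shares its start region with another gene can be read there. Sequences are from RefSeq on GRCh38.p14, a different build from the hg19 of the counts. They end at the base before the most upstream start site in the RefSeq promoter table and are cut where an exon of a RefSeq-matched GENCODE transcript is met, which for CHEK1 is an exon of its own that lies further upstream. Capitals mark the CCAAT box, the binding word of the factor NF-Y, read on either strand (CCAAT or ATTGG). RAD51C, the largest rise, is shown over 250 bases at chr17:58692323-58692572 on the plus strand. CHEK1, the largest fall, is shown over 211 bases at chr11:125626013-125626223 on the plus strand. PALB2 is shown over the 81 bases at chr16:23641311-23641391 on the minus strand, which lie between its start and that of DCTN5, a dynactin subunit gene read the other way.
RAD51C: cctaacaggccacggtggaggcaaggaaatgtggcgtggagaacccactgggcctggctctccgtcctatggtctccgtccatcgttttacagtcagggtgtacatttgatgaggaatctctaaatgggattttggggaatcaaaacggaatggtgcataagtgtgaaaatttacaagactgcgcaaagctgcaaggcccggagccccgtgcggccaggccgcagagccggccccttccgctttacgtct
CHEK1: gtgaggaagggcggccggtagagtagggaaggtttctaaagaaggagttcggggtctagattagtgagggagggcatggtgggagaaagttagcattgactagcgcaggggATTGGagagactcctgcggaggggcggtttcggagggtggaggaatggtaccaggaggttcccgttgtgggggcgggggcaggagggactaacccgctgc
PALB2: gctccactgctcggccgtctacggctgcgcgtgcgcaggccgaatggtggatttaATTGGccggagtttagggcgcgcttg

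The CCAAT word begins 100 bases before the CHEK1 start and 26 bases before the PALB2 start on the opposite strand, and the RAD51C stretch holds none. The start regions, taken as 250 bases before each listed start, were found for 9 of the 10 members (15 windows), FANCI being the exception. A CCAAT word on either strand was in 7 of the 15 windows, which belong to ATM, BRCA1, CHEK1 and PALB2 and partly overlap, and in 32.0% of the 35116 RefSeq windows of the same length. The words of the E2F site of S phase genes (TTTCCCGC, TTTCGCGC, TTTGCCGC and TTTGGCGC, either strand) were in none of the 15 windows and in 2.79% of all windows. The word of the cell cycle homology region (TTTGAA, either strand) was in 1 of the 15 windows, of ATM, and in 13.3% of all windows. These letters are a description of the windows and not evidence of binding or, where a word is absent, of its lack. Words found in 2.79% of all windows would seldom appear among 15, and FANCI had no window. Members that rose (ATM, PALB2) and members that fell (BRCA1, CHEK1) both held CCAAT words.

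Of the kinases, ATM rose, CHEK1 fell and ATR did not pass the test. ATM, the kinase activated by double-strand breaks, stood at 28.4, 30.0 and 26.3 CPM in control replicates 1 to 3 and at 35.6, 34.8 and 32.5 CPM in CDK12 replicates 1 to 3. Every CDK12 library was above every control. The log2 fold change was 0.28 (SE 0.06, 95% interval 0.15 to 0.41; edgeR quasi-likelihood, Benjamini-Hochberg adjusted p = 0.000894), a level 21.7% higher. ATR, the kinase of stalled replication forks, stood at 69.2, 69.0 and 66.3 CPM in controls and at 73.8, 72.4 and 66.4 CPM with CDK12. Its groups overlapped through CDK12 replicate 3, and its interval of -0.04 to 0.16 on the log2 scale around 0.06 lies within a 1.2-fold change in either direction (adjusted p = 0.39 by the same edgeR test). With 1438 to 1985 counts a library, ATR was the most deeply counted of the 10.

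CHEK1, the checkpoint kinase that ATR phosphorylates, had the largest fall among the members. It stood at 11.2, 12.5 and 14.0 CPM in controls and at 9.998, 9.51 and 8.71 CPM with CDK12. The controls were spread more widely than those of any other member (a coefficient of variation of 10.8%), yet the lowest control was above the highest CDK12 library. The log2 fold change was -0.42 (SE 0.09, 95% interval -0.60 to -0.23; edgeR quasi-likelihood, Benjamini-Hochberg adjusted p = 0.00081), a level that fell by 25.1%.

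BRCA1, the ubiquitin ligase that starts repair by recombination, fell least of the members that fell. It stood at 14.6, 13.6 and 13.3 CPM in controls and at 11.7, 11.2 and 12.05 CPM with CDK12. The groups did not overlap, but the gap between the lowest control and the highest CDK12 library was narrow. The log2 fold change was -0.24 (SE 0.08, 95% interval -0.41 to -0.08; edgeR quasi-likelihood, Benjamini-Hochberg adjusted p = 0.0175), a level that fell by 15.6%. The call was lost with the DESeq2 Wald test (adjusted p = 0.0651), without control replicate 1 (edgeR, 0.0926) and without CDK12 replicate 2 (edgeR, 0.0658).

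PALB2, the bridge between BRCA1 and BRCA2, went the other way. It stood at 38.4, 39.2 and 35.8 CPM in controls and at 45.3, 42.5 and 42.1 CPM with CDK12, without overlap. The log2 fold change was 0.20 (SE 0.06, 95% interval 0.08 to 0.32; edgeR quasi-likelihood, Benjamini-Hochberg adjusted p = 0.0075), a level 14.8% higher. Without control replicate 3, the lowest control, the adjusted p was 0.06 with the log2 fold change at 0.16. BRCA2, a mediator of recombination, stood at 9.62, 9.35 and 9.01 CPM in controls and at 8.70, 11.04 and 10.5 CPM with CDK12. Its CDK12 replicate 1 was the lowest of all 6 libraries and replicates 2 and 3 the highest. The BRCA2 interval ran from -0.09 to 0.30 around a log2 fold change of 0.11 (edgeR, adjusted p = 0.402), and the fold change itself ran from 0.04 to 0.21 with 1 library left out.

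FANCI and FANCD2, the paired subunits of the Fanconi anemia clamp, fell by nearly the same amount. FANCI stood at 43.8, 45.0 and 42.6 CPM in controls and at 34.9, 36.4 and 33.9 CPM with CDK12. FANCD2 stood at 32.1, 34.2 and 32.8 CPM in controls and at 26.6, 27.6 and 24.8 CPM with CDK12. For both genes every CDK12 library was below every control, and replicate 2 was the highest library of each group. The log2 fold change of FANCI was -0.32 (SE 0.06, 95% interval -0.43 to -0.21; edgeR quasi-likelihood, Benjamini-Hochberg adjusted p = 5.68e-05), a level that fell by 19.9%. That of FANCD2 was -0.33 (SE 0.06, 95% interval -0.45 to -0.20; adjusted p = 0.000158 by the same edgeR test), a level that fell by 20.3%. How the counting treated strand, overlapping genes and near copies is unknown, and FANCD2 has pseudogenes, so its level and its ratio to FANCI carry that doubt.

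RAD51C and RAD51D differed in depth as well as in outcome. RAD51C, an accessory factor of recombination, had the largest rise among the members. It stood at 19.7, 19.4 and 18.996 CPM in controls and at 27.4, 24.4 and 24.0 CPM with CDK12. The controls had a coefficient of variation of 1.79%, and CDK12 replicate 1 was the highest of its group. The log2 fold change was 0.39 (SE 0.07, 95% interval 0.25 to 0.53; edgeR quasi-likelihood, Benjamini-Hochberg adjusted p = 7.57e-05), a level 30.7% higher. RAD51D, which shares a complex with it, stood at 1.85, 1.87 and 2.03 CPM in controls and at 2.01, 1.94 and 2.33 CPM with CDK12, from 39 to 56 counts a library. Its groups overlapped, and its interval of -0.23 to 0.48 around a log2 fold change of 0.12 (edgeR, adjusted p = 0.616) includes both no change and the rise of RAD51C. RAD51D shares sequence with a read-through transcript, RAD51L3-RFFL, which was listed with 0 or 1 counts a library. How reads shared by both were counted is not given in the sources used here, so the RAD51D level is uncertain.

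**Figure D2:**
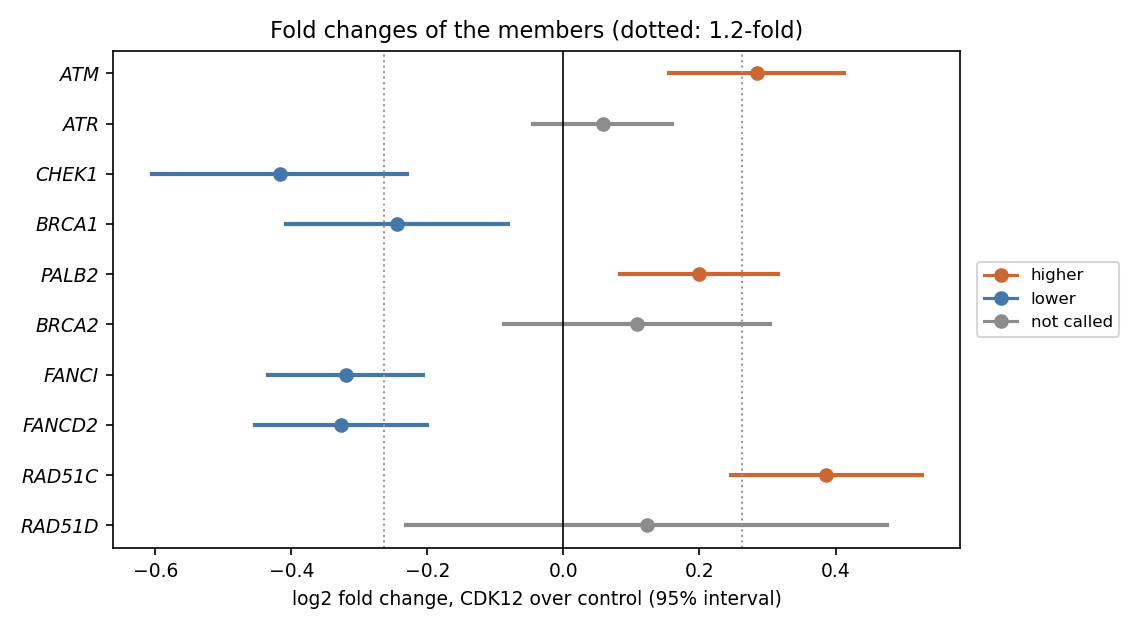
Log2 fold change of each gene, CDK12 over control, with its 95% interval from the edgeR fit; dotted lines mark a change of 1.2-fold. The intervals of ATM, PALB2 and RAD51C lie above 0, those of CHEK1, BRCA1, FANCI and FANCD2 below 0, and those of ATR, BRCA2 and RAD51D cross it.

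Ratios of 2 members within a library do not depend on how libraries are scaled, and 7 pairs were compared with an exact two-sided permutation test, for which 3 against 3 libraries cannot go below p = 0.1. For 4 pairs the groups did not overlap and the exact test gave this smallest value, which adjusted over the 7 pairs was 0.175 and could not pass the threshold. ATM against CHEK1 shifted most: the log2 ratio was 1.34, 1.26 and 0.91 in controls and 1.83, 1.87 and 1.90 with CDK12, a ratio 1.62-fold higher. ATR against CHEK1, the kinase and its substrate, went from a mean log2 ratio of 2.44 ± 0.19 to 2.91 ± 0.03 (n = 3 per group, exact permutation p = 0.1), 1.38-fold higher. ATM against ATR went from -1.27 ± 0.07 to -1.05 ± 0.015, with the CDK12 libraries closer to each other than the controls. BRCA1 against BRCA2 went from 0.57 ± 0.03 to 0.22 ± 0.20, with values of 0.43, 0.03 and 0.20 in the CDK12 libraries.

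The other 3 pairs overlapped between the groups. FANCI against FANCD2 was 0.45, 0.40 and 0.38 in controls and 0.39, 0.40 and 0.45 with CDK12, a mean difference of 0.01 (exact permutation p = 0.7). The proportion of the clamp's transcripts thus differed by less than the spread between libraries while both fell. RAD51C against RAD51D had a mean difference of 0.26 (p = 0.3, exact permutation) and ranged from 3.35 to 3.76 in the CDK12 libraries. PALB2 against BRCA2 differed by 0.09 (p = 0.8, exact permutation) and by -0.04 without CDK12 replicate 1.

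**Figure D3:**
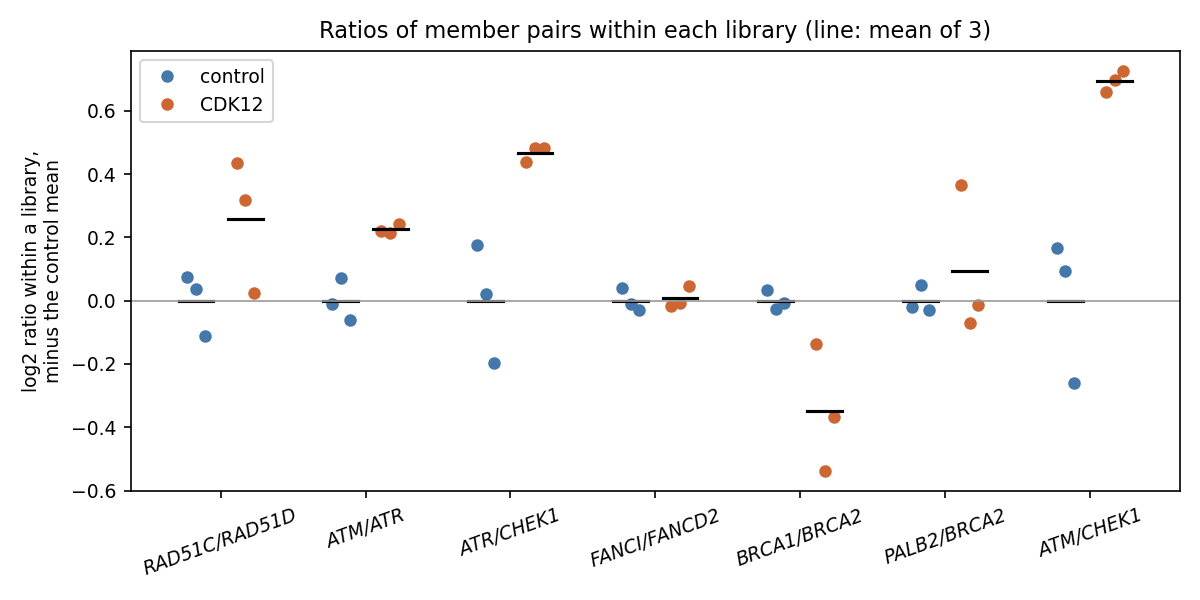
Log2 ratio of 2 members within each library, minus the mean of the control libraries, for 7 pairs; points are libraries and lines the means of 3. ATM/CHEK1, ATR/CHEK1 and ATM/ATR lie higher and BRCA1/BRCA2 lower in the CDK12 libraries without overlap, and FANCI/FANCD2 stays near 0 in both groups.

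Per kilobase of transcript, taken from the longest coding RefSeq-matched transcript in GENCODE 29, the members spanned a wide range of levels. In controls PALB2 was highest at 9.44 ± 0.45 CPM per kb, followed by FANCI at 9.24 ± 0.26, ATR at 8.26 ± 0.20, RAD51C at 7.48 ± 0.13 and FANCD2 at 6.33 ± 0.21 (n = 3). CHEK1 at 3.02 ± 0.33, ATM at 2.15 ± 0.14, BRCA1 at 1.90 ± 0.09, RAD51D at 1.25 ± 0.07 and BRCA2 at 0.85 ± 0.03 CPM per kb formed the lower part. PALB2 and FANCI did not differ beyond their spread. With CDK12, RAD51C moved from the fourth to the second place at 9.76 ± 0.73 CPM per kb, FANCI from the second to the fourth at 7.39 ± 0.26, and ATM (2.61 ± 0.12) passed CHEK1 (2.27 ± 0.16).

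Rises and falls both occurred among longer and shorter members, size being a feature often linked to CDK12. A link between size and the shifts was not tested. Spans are those of the RefSeq gene, and exons those of the longest coding RefSeq-matched GENCODE transcript. ATM (a gene span of 146.0 kb, 63 exons) rose, ATR (129.5 kb, 47 exons) did not pass, and BRCA1 (126.0 kb, 24 exons) fell. BRCA1 has listed starts far apart, with GRCh38.p14 windows at chr17:43125365-43125614, beside the gene NBR2, and at chr17:43170328-43170577. Its span runs to the latter, so from the start beside NBR2 it is shorter, and its place among the longest is uncertain. Between 70 and 90 kb, FANCD2 (75.5 kb, 43 exons) and FANCI (73.3 kb, 38 exons) fell while BRCA2 (85.2 kb, 28 exons) did not pass. Among the shorter genes CHEK1 (56.0 kb, 13 exons) fell, RAD51C (43.0 kb, 9 exons) and PALB2 (38.1 kb, 13 exons) rose, and RAD51D (27.6 kb, 10 exons) did not pass. The counts are per gene, so the use of internal polyadenylation sites, which CDK12 is known to affect, was not measured.

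Of the members, 6 start within 1000 bases of a gene read in the opposite direction, and 5 of these divergent partners had enough reads to be tested. By edgeR's quasi-likelihood test 0 of the 5 passed the adjusted threshold, as with DESeq2 and limma-voom, and 1, NBR2, had an unadjusted p under 0.05. NBR2, the noncoding gene 127 bases from BRCA1, had 23, 27 and 32 counts in controls and 38, 42 and 42 with CDK12 (log2 fold change 0.43, 95% interval 0.01 to 0.86; edgeR, Benjamini-Hochberg adjusted p = 0.106), while BRCA1 fell; reads of antisense neighbours cannot be told apart if strand was not used in the counting. DCTN5, 82 bases from PALB2, was at 118 ± 1.41 and 113 ± 3.10 CPM (log2 fold change -0.06, interval -0.15 to 0.03), while PALB2 rose. NPAT, the activator of histone genes 190 bases from ATM, was at 21.0 ± 0.69 and 22.6 ± 1.04 CPM (log2 fold change 0.11, interval -0.03 to 0.24). TEX14 beside RAD51C had a log2 fold change of 0.19 (interval -0.12 to 0.50), and CIDECP, a pseudogene beside FANCD2 whose counts are uncertain, one of -0.10 (interval -0.28 to 0.08). ZAR1L beside BRCA2 had 0 to 2 counts a library. The groups did not overlap for NBR2, NPAT and TEX14 (CDK12 above) and for DCTN5 (CDK12 below), and overlapped for CIDECP. Among all genes tested 45.6% showed no overlap. The difference between a member and its partner was not tested.

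**Figure D4:**
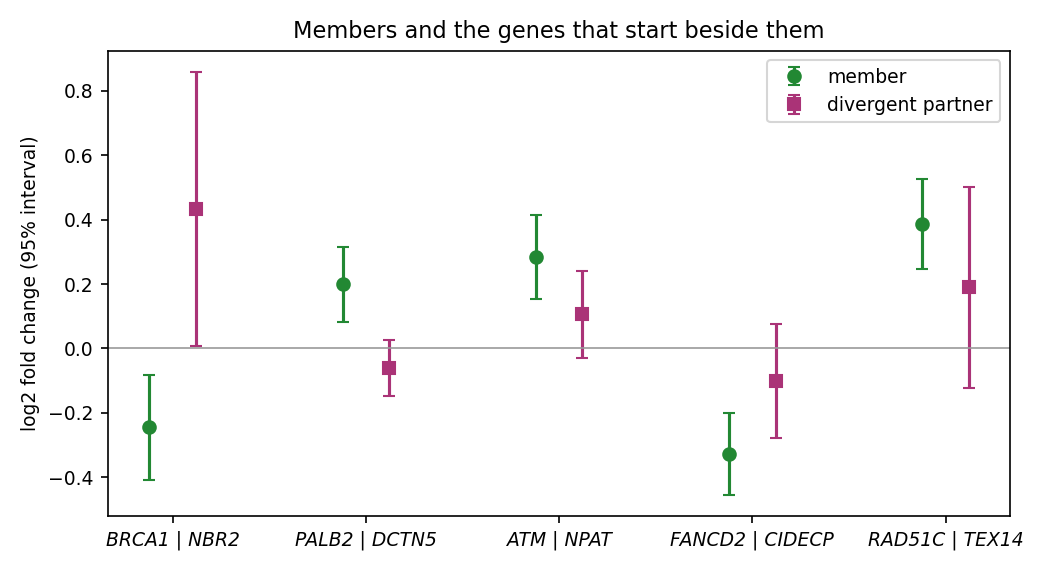
Log2 fold change, CDK12 over control, with 95% intervals for 5 members (green circles) and the genes that start beside them on the opposite strand (purple squares). The members' intervals exclude 0 for all 5, while those of DCTN5, NPAT, CIDECP and TEX14 cross 0 and that of NBR2 begins at 0.01.

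The rest of the pathway also went both ways. Of 83 other genes tested in 3 lists (homologous recombination, Fanconi anemia, checkpoint signalling), 12 were higher, 19 lower and 52 did not pass, 37.3% called against 35.1% of all genes, with a median log2 fold change of -0.01. The balance depended on the scaling, with 16 higher and 13 lower under upper-quartile factors and 17 higher and 12 lower under total counts. For the 10 members the split was 3 higher and 4 lower under each scaling.

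Of 37 other homologous recombination genes, 5 were higher and 6 lower (7 and 4 under upper-quartile factors or total counts, 3 and 4 with DESeq2 or without control replicate 3, 5 and 3 without CDK12 replicate 2). HELQ, a helicase, rose from 17.6 ± 0.68 to 25.1 ± 0.21 CPM, and RAD50, of the break-sensing MRE11 complex that activates ATM, from 116 ± 6.24 to 135 ± 3.58 CPM. UIMC1, a member of the BRCA1-A complex, rose with a log2 fold change of 0.21. EXO1, the nuclease that resects broken ends, fell with a log2 fold change of -0.40, and RMI2, of the BLM complex, fell from 13.2 ± 0.83 to 10.4 ± 0.83 CPM. BABAM1, also of the BRCA1-A complex, fell with a log2 fold change of -0.20.

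Of 21 other Fanconi anemia genes, 2 were higher and 3 lower (3 and 2 under upper-quartile factors, 4 and 1 under total counts, 2 and 1 with DESeq2). ERCC4, a nuclease that unhooks crosslinks, rose from 28.5 ± 1.71 to 36.8 ± 2.63 CPM, and FAN1, a nuclease recruited by FANCD2, from 72.8 ± 0.74 to 83.2 ± 2.73 CPM. STRA13, a partner of FANCM, fell from 53.1 ± 2.72 to 43.2 ± 2.49 CPM. FANCA (log2 fold change -0.38) and FAAP100 (-0.20), both of the core complex that ubiquitinates the FANCI and FANCD2 clamp, were called lower. Each lost its call under 6 of 15 alternatives: DESeq2 (adjusted p = 0.117 and 0.053), total counts (0.0528 and 0.0665) and several left-out libraries for both, and upper-quartile factors for FAAP100 (0.059).

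Checkpoint genes had the highest share of calls among the 3 lists: of 27 tested, 5 were higher and 10 lower, with 6 and 7 under upper-quartile factors or total counts and 3 and 6 without control replicate 3. The higher count was also 3 without control replicate 1 or CDK12 replicate 2. CLSPN, the adaptor through which ATR activates CHEK1, fell from 7.80 ± 0.49 to 5.15 ± 0.50 CPM, a log2 fold change of -0.60, larger than that of CHEK1. TIMELESS, a fork protection factor, fell from 56.4 ± 1.62 to 46.2 ± 2.22 CPM, and PKMYT1, an inhibitory kinase of CDK1, from 18.7 ± 0.75 to 13.8 ± 1.52 CPM. PPM1D, a phosphatase that switches off ATM signalling, rose from 544 ± 6.02 to 616 ± 18.6 CPM. RAD9A, of the checkpoint clamp, rose from 13.4 ± 0.77 to 16.4 ± 0.65 CPM.

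Markers of S phase and proliferation were lower in the same libraries as the falling members. Of 26 tested, 20 fell and 0 rose (0 also at an unadjusted p, with DESeq2 and with limma-voom), with a median log2 fold change of -0.27. Among all genes tested 18.9% were lower and 16.2% higher. Under total counts 17 of the list were lower. Against a fold of 1.2 (glmTreat, adjusted) 5 were lower, beside 479 of all 14665 genes. The list was chosen with earlier results of these data known. Their summed level was 1494 to 1557 CPM in controls and 1268 to 1287 CPM with CDK12. MCM4 and MCM5, subunits of the replicative helicase, had log2 fold changes of -0.37 and -0.46, beside -0.42 for CHEK1, -0.32 for FANCI and -0.33 for FANCD2. Their part in the falls of the members was not tested.

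**Figure D5:**
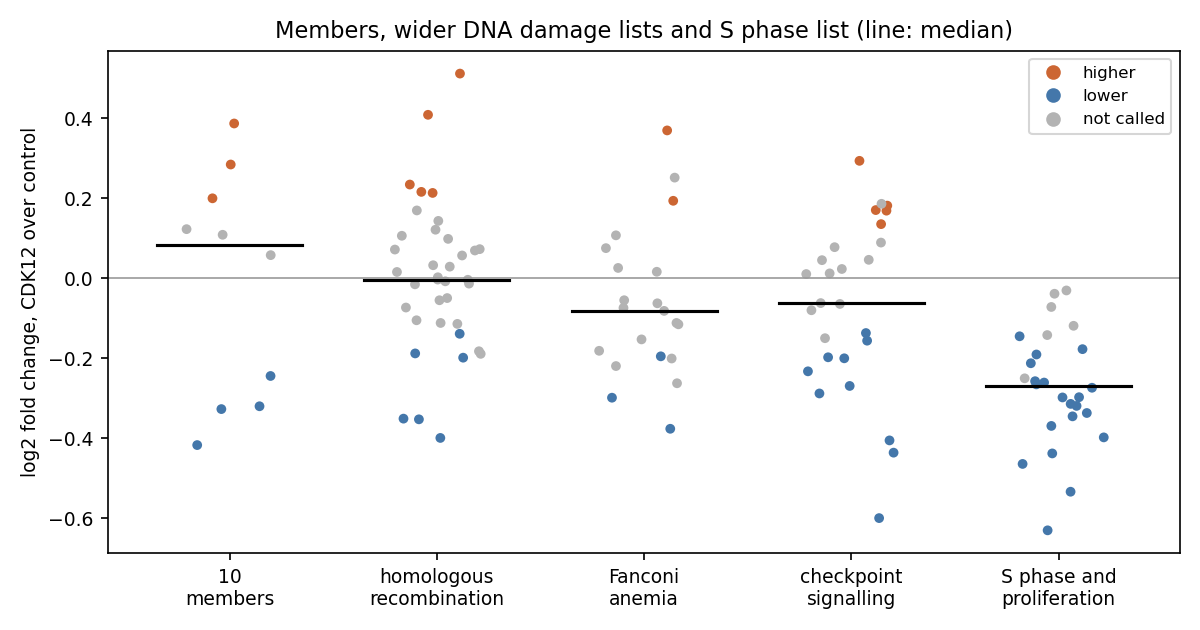
Log2 fold change, CDK12 over control, of each tested gene in the 10 members, 3 wider DNA damage lists and an S phase list; colours mark genes called higher or lower and lines the medians. The members lie on both sides of 0 like the 3 wider lists, whereas the S phase list lies below 0 with a median of -0.27.

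Over the 6 libraries, the genes of the 3 wider lists whose log2 CPM ran most like that of the called members were found by Pearson correlation among 83 genes. For ATM they were ETAA1 (0.992), an activator of ATR, and RAD50 (0.99), and the same genes came first for PALB2 (0.959 and 0.958). For CHEK1 they were RMI2 (0.978) and CLSPN (0.967), for FANCI TIMELESS (0.976) and EXO1 (0.963), and for FANCD2 CLSPN (0.963) was among them. For BRCA1 they were FANCA (0.956) and STRA13 (0.955), and for RAD51C PPM1D (0.953) and RAD9A (0.949). Among the members, FANCI and FANCD2 correlated at 0.986, ATM and PALB2 at 0.98, and RAD51C with PALB2 at 0.952. The 6 points share their libraries and scaling and fall into the 2 groups, so the values carry the difference between the groups with them.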

How the data were processed

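RNA-seq was done on 3 control and 3 CDK12 libraries. Each deposited file gives unnormalized read counts by gene symbol for 1 library. CASAVA 1.8, STAR 2.6.0c, featureCounts and Subread 1.6.2 and the build hg19 are named, per the submitters' processing notes; annotation, strand setting and multi-mapping treatment were not given in the sources used here. Genes were kept with filterByExpr (edgeR 4.0.16, minimum count 10, minimum total 15), scaled by TMM and tested between groups by edgeR's quasi-likelihood method, two-sided, with group as the only term and Benjamini-Hochberg adjustment over all 14665 genes. Intervals are 95%, from SE = size / root F. Ratios used counts plus 0.5. A count of 3, the limit that a count of 0 allows, is 0.113 to 0.142 CPM, for counting error only. The test was tested on simulated data. The alternatives were other scalings, filters and tests (DESeq2 1.42.0, limma 3.58.1), a replicate block and leaving out each library. The members and lists were chosen with earlier results of these data known. Named genes outside the members were CDK12, CCNK, CDK13, cell type markers, divergent partners and the most correlated list genes. Per list, up to 3 called genes in each direction with the smallest p were also named (some not printed). Older symbols were matched through RefSeq.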

Additional observations from a re-analysis of the deposited data

How the results depend on the processing

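Each member kept its direction under all 15 alternatives that kept the test against no change. The calls of CHEK1, FANCI, FANCD2, ATM and RAD51C held under all of them, and ATR, BRCA2 and RAD51D passed under none; with 1 library left out their log2 fold changes ran from 0.03 to 0.10, 0.04 to 0.21 and 0.04 to 0.17. BRCA1 had a log2 fold change of -0.24 with the DESeq2 Wald test (adjusted p = 0.0651) and of -0.27 to -0.20 with 1 library left out, and PALB2 of 0.16 to 0.22. Against a fold of 1.2 (glmTreat), 459 genes were higher and 479 lower, and 0 members were higher and 0 lower. Under total counts 12 genes of the 3 wider DNA damage lists were lower, and over all genes 3324 were higher and 2064 lower; upper-quartile factors gave 3164 and 2144. The TMM factors were 0.985 to 0.986 in the controls and 1.014 to 1.016 in the CDK12 libraries. Total counts leave these factors out, which moves the log2 fold changes up. Why the factors differed between the groups was not tested. The median log2 fold change of all genes moved by at most 0.04 between scalings. With the replicate block, 2330 genes were higher and 2776 lower, with 3 and 4 of the members, and no member's call changed. Same-numbered libraries' deviations from their group means correlated at -0.07, 0.06 and 0.03, and those of differently numbered libraries at -0.09 to 0.06. Such values cannot tell whether same-numbered libraries were prepared together. With differences of the log2 ratios taken within replicate numbers, a sign-flip permutation of 3 pairs gave p = 0.25 at the lowest. This is the smallest value that 3 pairs allow, so the test could not pass the threshold. Depth limits RAD51D most, at 39 to 56 counts a library.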
